A study of Homo sapiens with 6 samples.

Results

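The interferon response genes described here are 49 genes listed by symbol, of 43424 symbols in the count tables, and each was chosen because its symbol is in that list. They comprise receptor chains, kinases and transcription factors of the interferon pathway together with genes that interferons are known to induce. Of the 49 genes, 42 had enough counts to be tested between the groups, and the other 7 are described by their counts.

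Interferons are secreted proteins that bind receptor chains at the cell surface. Kinases attached to the receptors then activate STAT and IRF transcription factors, which enter the nucleus and switch on a large set of genes, many of them antiviral. In myeloid cells some of these genes are also transcribed at a low level without added interferon, and several IRF factors take part in the maturation of the lineage.

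The series compared cells named HL-60, a human acute myeloid leukaemia line, between 2 groups, and asked which genes take part in the differentiation that a plant extract brings about in them. All libraries carry the genotype label WT and came from the same culture medium. For the group labelled CIP, the cells had met an extract of Corydalis incisa (Thunb.) Pers. whose concentration was raised from 2 to 20 µg/ml during 6 months, which gave cells that the series calls resistant. For the group labelled DMSO, the cells had met the solvent, also for 6 months per the sample titles. No interferon was added, as far as the labels say. There were 3 libraries in each group, made with QuantSeq, a method that reads near the polyadenylated 3' end of a transcript and therefore counts transcripts without regard to their length. Separate cultures are not mentioned for the replicates, so p-values measure only how far these libraries spread, and that spread may be technical. Whether the resistant cells descend from a single clone is not stated in the labels.

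Total counts lay between 8143657 and 10868396 per library. Levels are given in CPM, read counts relative to the library total after TMM scaling, and 3 counts in a library correspond to 0.288 to 0.347 CPM. The DMSO-labelled libraries went against their name in MPO, the myeloperoxidase that HL-60 cells are known to make in abundance, which stood at 1.12 ± 0.324 CPM (SD, n = 3) against 8684 ± 282 CPM with the CIP label. MYC, which HL-60 carries in extra copies, stood at 41.8 ± 3.91 against 280.1 ± 52.3 CPM. The 10 HL-60 and promyelocyte markers did not all go that way. Of 9 tested, 6 were higher with the CIP label (MPO, PRTN3, CD33, MYC, CEBPE and SPI1) and 3 were lower, CTSG (95.4 against 654.7 CPM), ELANE (332.8 against 592.1 CPM) and AZU1 (25.2 against 44.1 CPM), so the DMSO-labelled libraries did hold transcripts of primary granules. Groups are therefore called by their labels, and "rose" or "fell" means higher or lower with the CIP label. Marker lists of other cell types moved as well. Summed over 11 monocyte, macrophage and dendritic markers, the level was 42.5 to 55.8 CPM with the CIP label and 244 to 264 CPM with the DMSO label, with 1 of 5 tested markers higher and 3 lower, and FCGR3A, CD163, CLEC9A and CD1C at 0 counts in both groups. LYZ alone gave 17.8 CPM of that sum with the CIP label and 232.3 CPM with the DMSO label. The 9 lymphoid markers summed to 3.73 to 4.97 against 87.8 to 108 CPM, with CD3E and CD3D at 0 with the DMSO label, and most of that sum was NKG7 (3.20 against 79.7 CPM). The 8 plasmacytoid dendritic markers summed to 101.8 to 110.4 against 46.8 to 50.9 CPM, nearly all of it from the broadly expressed TCF4 (99.1 against 46.3 CPM), with GZMB and TLR7 at 0 in both and CLEC4C at 0 and 4 counts. The 8 epithelial, stromal and endothelial markers summed to 20.0 to 34.8 against 65.4 to 110.5 CPM, with CDH5 at 0 in both. Of 6 tested, 2 were lower (PECAM1 and PDGFRB) and 0 higher, and PECAM1 alone gave 3.12 against 38.1 CPM of that sum. The 7 erythroid and megakaryocyte markers summed to 2.15 to 3.47 against 0 to 0.113 CPM. Counts of COL1A1, COL3A1, KRT8 and KRT18 together stood at 25.4, 14.7 and 30.2 CPM with the CIP label (libraries 1 to 3) and at 67.1, 22.2 and 27.4 CPM with the DMSO label. None of these 4 genes passed the test (edgeR adjusted p from 0.057 to 0.40). The part of these markers in the results below was not tested, but results that rest on CIP replicate 3 or DMSO replicate 1, which hold the most of those 4 transcripts in their groups, are given with and without them where the call or, by over 1.5 times, the fold changed. In bulk RNA, fewer cells of a type and less RNA per cell cannot be told apart.

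To show what lies upstream of the genes that the results turn on, the stretch from 200 bases before to 20 bases after an annotated transcript start is printed for 5 of them, from RefSeq (GRCh38.p14), 5′ to 3′ on the strand of the gene. BST2 and IFI6 are members that fell, IRF1 and XAF1 are members that rose, and ISG15 is a member that did not pass the test. Capitals mark every match, on either strand, to GAAANNGAA (the core of the interferon-stimulated response element, the site of STAT and IRF complexes), to TTCNNNGAA (the gamma-activated site, a STAT dimer site) or to GAAANGAAA (a core with a spacer of 1 base in place of 2). Matches may overlap each other, and N stands for any base. The stretches are chr19:17405611-17405830 (BST2, minus strand), chr1:27672173-27672392 (IFI6, minus strand), chr1:1013297-1013516 (ISG15, plus strand), chr5:132490754-132490973 (IRF1, minus strand) and chr17:6755846-6756065 (XAF1, plus strand).
BST2: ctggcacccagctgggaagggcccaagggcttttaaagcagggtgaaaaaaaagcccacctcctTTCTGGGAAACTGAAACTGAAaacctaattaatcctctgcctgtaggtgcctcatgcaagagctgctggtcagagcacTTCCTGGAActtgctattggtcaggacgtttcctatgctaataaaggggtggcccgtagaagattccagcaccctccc
IFI6: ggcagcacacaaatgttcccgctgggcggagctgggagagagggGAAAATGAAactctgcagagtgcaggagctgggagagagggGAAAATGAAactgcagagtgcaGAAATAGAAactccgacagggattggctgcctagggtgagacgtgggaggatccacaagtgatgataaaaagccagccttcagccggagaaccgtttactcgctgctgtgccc
ISG15: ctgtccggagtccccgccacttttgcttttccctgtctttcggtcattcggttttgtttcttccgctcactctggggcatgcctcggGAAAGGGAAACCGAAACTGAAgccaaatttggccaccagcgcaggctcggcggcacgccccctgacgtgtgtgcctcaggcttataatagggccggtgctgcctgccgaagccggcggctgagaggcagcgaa
IRF1: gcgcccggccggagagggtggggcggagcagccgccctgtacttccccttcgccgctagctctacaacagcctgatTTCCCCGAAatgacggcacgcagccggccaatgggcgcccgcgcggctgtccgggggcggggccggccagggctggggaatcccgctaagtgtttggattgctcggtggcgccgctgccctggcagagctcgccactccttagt
XAF1: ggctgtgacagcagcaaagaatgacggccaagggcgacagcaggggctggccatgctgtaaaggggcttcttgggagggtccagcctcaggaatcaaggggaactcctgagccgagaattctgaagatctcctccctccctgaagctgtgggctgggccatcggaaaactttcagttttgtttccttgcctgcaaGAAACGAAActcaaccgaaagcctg
In BST2, 2 overlapping cores begin 130 and 124 bases before the start and lie in one run with a gamma-activated site that begins at 136, and a further gamma-activated site begins at 58. IFI6 holds 3 separate cores, beginning 156, 115 and 93 bases before its start, and ISG15 holds 3 overlapping cores that begin at 113, 107 and 101. IRF1 has no core and 1 gamma-activated site, which begins 124 bases before the start. In the printed stretch of XAF1 the sole match is the variant with the shorter spacer, which begins 5 bases before the start and runs across it. The stretch chr17:6755197-6755496, around another annotated start of XAF1, holds no match.

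Most of the tested interferon response genes differed between the groups, and more of them fell than rose. With edgeR's quasi-likelihood test and Benjamini-Hochberg adjustment over all 12844 tested genes, 28 of 42 passed an adjusted p of 0.05 (66.7%), against 73.1% of all tested genes, so the members passed about as often as genes in general. By direction, 8 rose (19% of the tested members, against 34.9% of all tested genes) and 20 fell (47.6%, against 38.2%). The genes that rose were IFNGR1, IFNGR2, JAK2, IRF1, TRIM25, SP100, SP110 and XAF1. A further rule asked for a called change of at least 2-fold, which 13 members met (31%, against 39.0% of all tested genes). Of these, IRF1 and XAF1 rose (4.76%, against 15.0%) and 11 fell (26.2%, against 24.0%): IFNAR2, IRF5, IFI16, OAS2, OAS3, MX1, MX2, BST2, ISG20, USP18 and IFI6. The 3 libraries of one label all lay above the 3 of the other for 30 tested members (71.4%, against 75.5% of all tested genes), 7 with the CIP label on top (36.1% of all tested genes) and 23 with the DMSO label on top (39.3%). These shares were close to the background or below it, apart from the direction of the calls.

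The median log2 fold change, CIP minus DMSO, was -0.35 over the 42 tested members and -0.03 over all tested genes. Together the 49 genes took 0.102 to 0.107% of the counts of CIP-labelled libraries and 0.185 to 0.188% of those of DMSO-labelled libraries. These are shares of library totals without TMM scaling, and abundant members weigh most in them. The largest differences in summed counts, CIP against DMSO, were those of IFITM2 (6251 against 12282), BST2 (278 against 4091) and MX2 (37 against 3263). The largest the other way was that of TRIM25 (3803 against 2288). Scaling by library totals in place of TMM moved the median of all genes to -0.26 and that of the members to -0.58. Then 5 members rose and 26 fell, so that 83.9% of the called members were lower in place of 71.4%. All tested genes shifted the same way, with 3452 higher and 5920 lower (63.2% of their calls) in place of 4482 and 4912. IRF2, IRF3, IRF9, ADAR, IFIT1 and GBP2 then also passed as lower, and IFNGR1, JAK2 and SP100 no longer passed. Of the tested members, 30 reached the filter's minimum in all libraries of both labels. A further 8 did so only with the DMSO label (IRF9, OAS2, MX1, MX2, IFIT1, ISG20, GBP2 and USP18) and 2 only with the CIP label (IFIT3 and XAF1). A gene that enters through 1 label tends to be higher with that label because of the filter's own rule. IFIT3 was not, at 1.75 CPM with the CIP label against 2.14 CPM with the DMSO label. Among those that entered through 1 label, 6 were called (OAS2, MX1, MX2, ISG20, USP18 and XAF1). All 6 are among the 13 members with a called change of at least 2-fold, so their direction is not independent of the filter. Without CIP replicate 3 and DMSO replicate 1, 9 members rose and 16 fell, against 4253 and 4757 of all tested genes.

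**Figure D1:**
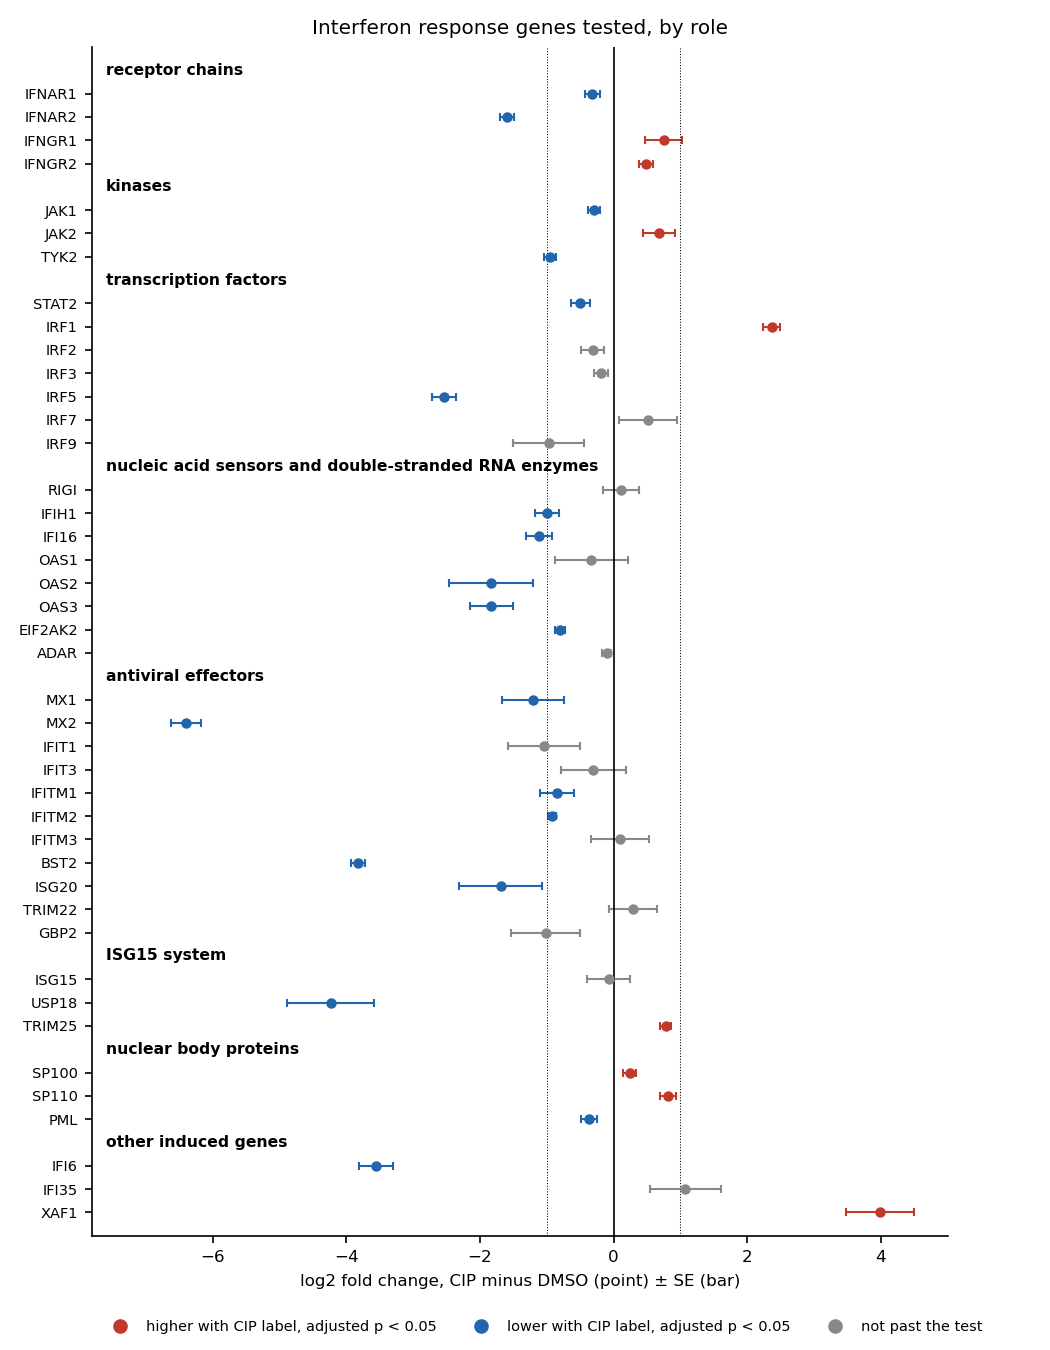
Log2 fold change, CIP minus DMSO, of the 42 tested interferon response genes by role, with bars of ± 1 SE from edgeR on 3 against 3 libraries; dotted lines mark a 2-fold change. MX2 lies farthest to the left at -6.40 and XAF1 farthest to the right at 3.99. No tested sensor or antiviral effector passed the test as higher, against 34.9% of all tested genes. Among them, OAS2, MX1, MX2, IFIT1, ISG20 and GBP2 reached the filter's minimum in all libraries only with the DMSO label. Their direction is not independent of the filter.

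**Figure D2:**
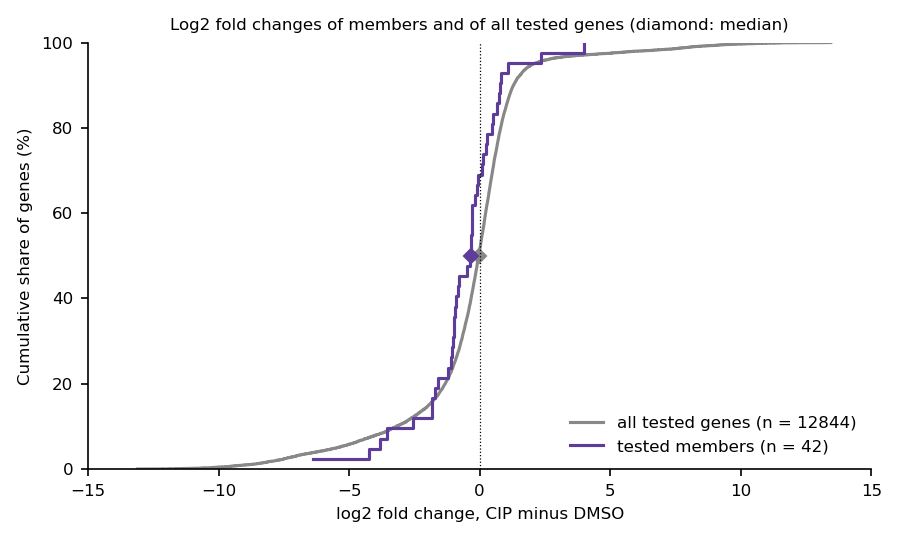
Cumulative share of genes (%) against the log2 fold change, for 12844 tested genes and for the 42 tested members, with a diamond at each median. The members' curve lies to the left of the other around the medians (-0.35 against -0.03) and within the range of all genes at both ends.

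Among the 4 receptor chains, those of the type I receptor fell and those of the interferon gamma receptor rose, where 38.2% of all tested genes fell and 34.9% rose. IFNAR2 (chr21:33229938-33265664), the chain that binds type I interferon with high affinity, stood at 29.3, 23.8 and 28.2 CPM with the CIP label (libraries 1 to 3) and at 82.0, 83.3 and 80.4 CPM with the DMSO label. The groups lay far apart, by -1.60 ± 0.10 on the log2 scale (SE; edgeR adjusted p = 6.2e-16), or 3.03-fold lower. Of the 50-base words in the last 300 bases of its coding transcripts, 45.3% are shared with another annotated gene, so its count is uncertain.

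IFNAR1 (chr21:33324395-33359864), the partner chain, stood at 31.6, 38.2 and 34.2 CPM against 41.9, 42.8 and 45.2 CPM. Its libraries separated narrowly (log2 -0.32 ± 0.11, edgeR adjusted p = 0.011), and the call was lost without CIP replicate 1 (-0.25, adjusted p = 0.078). IFNGR2 (chr21:33402882-33437516), the signalling chain of the gamma receptor, stood at 72.8, 59.7 and 81.9 CPM against 48.6, 53.9 and 50.4 CPM. All CIP-labelled libraries lay above the DMSO-labelled ones (log2 0.49 ± 0.10, edgeR adjusted p = 6.9e-05), though the gene overlaps TMEM50B.

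IFNGR1, the ligand-binding chain of the gamma receptor, stood at 7.054, 14.03 and 7.464 CPM against 7.73, 5.27 and 3.96 CPM. Here the groups overlapped and CIP replicate 2 stood apart. The log2 fold change of 0.75 ± 0.28 (edgeR adjusted p = 0.018) fell to 0.37 without that library (adjusted p = 0.29), and the call was also lost without DMSO replicate 2 (0.062) or 3 (0.12) and with library totals (0.10).

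The 3 receptor-bound kinases all passed the test, 1 higher and 2 lower, in a data set where 34.9% of all tested genes rose and 38.2% fell. TYK2, which sits on IFNAR1, stood at 39.0, 41.3 and 42.7 CPM with the CIP label and at 78.0, 79.1 and 80.4 CPM with the DMSO label. That gap was many times the spread within groups (log2 -0.95 ± 0.09, edgeR adjusted p = 3.2e-11). JAK1, shared by both receptor types, stood at 62.7, 57.8 and 54.8 CPM against 72.9, 73.4 and 68.3 CPM. This small fall (log2 -0.29 ± 0.09, edgeR adjusted p = 0.0040) was not called without CIP replicate 3 and DMSO replicate 1 (-0.23, adjusted p = 0.059). JAK1 also overlaps RAVER2, which had 447 counts with the CIP label and 93 with the DMSO label.

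JAK2, the kinase of IFNGR2 and of several cytokine receptors, stood at 8.79, 10.9 and 9.88 CPM against 6.14, 6.62 and 5.65 CPM. The libraries did not overlap (log2 0.68 ± 0.23, edgeR adjusted p = 0.010), and with library totals the call was lost (0.45, adjusted p = 0.086).

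**Figure D3:**
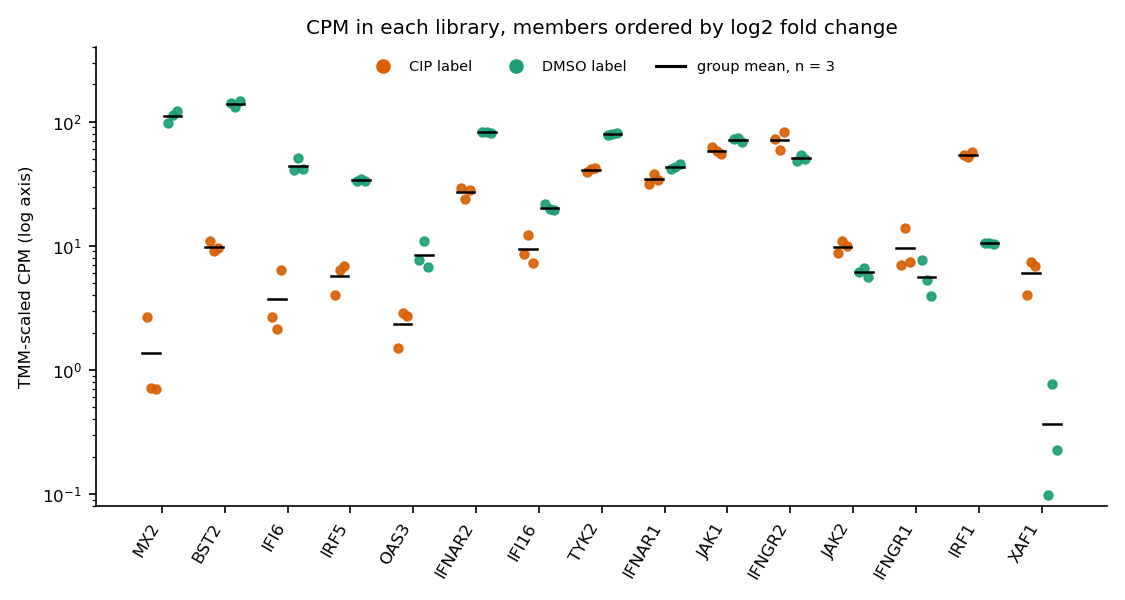
CPM on a log axis in each of the 6 libraries for the receptor chains, the kinases and the members with a called change of at least 2-fold and at least 5 CPM in the higher group, ordered by log2 fold change; points are libraries and bars group means (n = 3). The 2 groups overlap for IFNGR1 alone among these 15 genes, and MX2, BST2 and IFI6 show the widest gaps with the DMSO label on top.

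Of the 7 transcription factors, IRF1 rose, IRF5 and STAT2 fell and the other 4 did not pass the test (42.9% called, against 73.1% of all tested genes). IRF1 (chr5:132481609-132490773), an interferon-induced activator that binds response elements, stood at 53.7, 51.9 and 56.7 CPM with the CIP label and at 10.6, 10.5 and 10.4 CPM with the DMSO label. Replicates lay within a narrow band in each group, and the 5.15-fold difference (log2 2.37 ± 0.13, edgeR adjusted p = 8.3e-18) also passed a test for a change beyond 2-fold (edgeR glmTreat adjusted p = 2.2e-12). IRF1 is the member whose printed stretch holds a gamma-activated site and no core.

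IRF5 (chr7:128937032-128950038), which acts below Toll-like receptors in monocytes and dendritic cells, went the other way, at 4.05, 6.35 and 6.86 CPM against 33.1, 34.4 and 33.6 CPM. No CIP-labelled library came near the DMSO-labelled ones, and the gene was 5.80-fold lower (log2 -2.54 ± 0.18, edgeR adjusted p = 6.9e-15). The monocyte, macrophage and dendritic markers were lower with the same label, and whether they bear on IRF5 was not tested.

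STAT2, a subunit of the ISGF3 complex that type I interferon assembles, fell from 25.3 ± 1.15 to 17.9 ± 0.952 CPM (log2 -0.50 ± 0.14, edgeR adjusted p = 0.0023, n = 3 each). IRF9, the DNA-binding subunit of the same complex, stood at 0.851 ± 0.219 against 1.69 ± 0.403 CPM and did not pass (adjusted p = 0.0996), and 85.2% of its 3' words are shared with another gene. IRF3, which induces interferon genes after viral sensing, stood at 39.8 ± 0.582 against 45.4 ± 1.92 CPM (log2 -0.19, adjusted p = 0.10). The span of IRF3 overlaps BCL2L12. Neither IRF2, a repressor at response elements (14.5 ± 1.52 against 18.0 ± 2.49 CPM, adjusted p = 0.10), nor IRF7, which amplifies interferon production (3.21 ± 0.841 against 2.23 ± 1.40 CPM, adjusted p = 0.29), passed the test. Without DMSO replicate 2 both passed, IRF2 as lower (log2 -0.43, adjusted p = 0.042) and IRF7 as higher (log2 1.16, adjusted p = 0.045).

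The sensors and double-stranded RNA enzymes moved downward or did not pass. Of 8 tested genes, 5 were lower and 0 higher, against 38.2% lower and 34.9% higher among all tested genes. OAS2, among those 5, reached the filter's minimum in all libraries only with the DMSO label. IFI16 (chr1:158999976-159055151), a DNA sensor of the nucleus, stood at 8.56, 12.3 and 7.26 CPM with the CIP label and at 21.9, 19.7 and 19.5 CPM with the DMSO label. The groups did not overlap, at 2.17-fold (log2 -1.12 ± 0.19, edgeR adjusted p = 3.3e-06), and the gene overlaps the pyrin domain gene PYDC5. OAS3 (chr12:112938474-112973251), an oligoadenylate synthetase that is switched on by double-stranded RNA, stood at 1.503, 2.867 and 2.723 CPM against 7.626, 11.03 and 6.786 CPM. This was 3.55-fold lower with no overlap (log2 -1.83 ± 0.32, edgeR adjusted p = 4.4e-06).

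The other members of the OAS family were near the floor of the method. OAS2 stood at 0.477 ± 0.470 against 1.79 ± 0.648 CPM (log2 -1.84 ± 0.63, edgeR adjusted p = 0.0093), and its call was lost without CIP replicate 1 (-1.41, adjusted p = 0.068) or DMSO replicate 1 (-1.63, 0.058), while the log2 value was -2.96 without CIP replicate 3 and -2.74 without CIP replicate 3 and DMSO replicate 1. OAS1 stood at 1.06 ± 0.364 against 1.35 ± 0.515 CPM and did not pass (adjusted p = 0.59). OASL had 6 counts against 14 over the 3 libraries of each label and was not tested.

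IFIH1, the sensor of long double-stranded RNA, fell from 20.3 ± 0.973 to 10.1 ± 1.74 CPM (log2 -0.998 ± 0.178, edgeR adjusted p = 6.8e-06). EIF2AK2, the kinase that halts translation when it meets double-stranded RNA, fell from 116.3 ± 3.802 to 66.7 ± 2.80 CPM (log2 -0.80 ± 0.08, edgeR adjusted p = 6.0e-11). The span of EIF2AK2 overlaps GPATCH11. RIGI, the sensor of short RNA with a triphosphate end, stood at 6.66 ± 0.437 against 6.18 ± 1.42 CPM, and ADAR, which edits adenosine in double-stranded RNA, at 114 ± 4.51 against 123 ± 5.85 CPM. Neither of these passed (adjusted p = 0.72 and 0.20), with log2 values of 0.11 ± 0.26 and -0.11 ± 0.07.

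The antiviral effectors held the largest fall. MX2 (chr21:41362027-41409393), a dynamin-like GTPase that blocks retroviral capsids, had 23, 7 and 7 counts with the CIP label, or 2.66, 0.717 and 0.706 CPM, and 992, 1185 and 1086 counts with the DMSO label, or 98.2, 113.6 and 122.8 CPM. The lowest DMSO-labelled library was far above the highest CIP-labelled one (84.3-fold lower, log2 -6.40 ± 0.22, edgeR adjusted p = 1.3e-14), and without CIP replicate 1 the fold was 152.7. MX2 reached the filter's minimum in all libraries only with the DMSO label. Its neighbour MX1 (chr21:41420558-41459214), the broad antiviral paralogue, stood at 1.75 ± 1.22 against 4.02 ± 1.40 CPM. Although MX1 passed (log2 -1.21 ± 0.46, edgeR adjusted p = 0.020), the call was lost without CIP replicate 3 (-0.72, 0.12), without DMSO replicate 1 (-0.88, 0.16) and without both (-0.40, 0.48).

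BST2 (chr19:17402939-17405630), the tetherin that holds budding virus at the membrane, stood at 10.9, 9.11 and 9.58 CPM with the CIP label and at 140.4, 131.9 and 146.8 CPM with the DMSO label. Replicates were close together in both groups, and the gene was 14.2-fold lower (log2 -3.83 ± 0.11, edgeR adjusted p = 2.2e-26). No library moved this fold by more than 1.5 times when left out. BST2 and MX2 are thus the effectors with the widest separation, while ISG20, an RNA exonuclease, was called from few counts (0.478 ± 0.391 against 1.52 ± 0.187 CPM, log2 -1.69 ± 0.62, edgeR adjusted p = 0.015). The ISG20 call was lost without CIP replicate 2 (-1.45, 0.078) or 3 (-1.31, 0.098), without DMSO replicate 2 (-1.59, 0.061) and without the low-count filter (-1.66, 0.054), and without CIP replicate 1 its log2 value was -2.52. Without CIP replicate 3 and DMSO replicate 1 together, ISG20 did not pass either (-1.34, 0.097).

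The IFITM proteins, which hinder the entry of enveloped virus, share their 3' ends with each other. Of their 50-base words, 100% of those of IFITM1, 52% of IFITM2 and 31% of IFITM3 occur in another gene, so the split of reads between them is uncertain. IFITM2 fell from 418.6 ± 11.02 to 221 ± 17.4 CPM (log2 -0.92 ± 0.07, edgeR adjusted p = 2.0e-14). IFITM1 fell from 9.45 ± 2.37 to 5.24 ± 1.14 CPM (log2 -0.85 ± 0.26, edgeR adjusted p = 0.0042), a call that was lost without DMSO replicate 2 (-0.63, 0.064). IFITM3 had no steady direction, at 2.99 ± 1.78 against 2.79 ± 1.37 CPM (adjusted p = 0.84), and single libraries stood high in each group, CIP replicate 3 at 5.04 CPM and DMSO replicate 1 at 4.36 CPM.

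The IFIT proteins, which bind foreign RNA ends and are among the genes most strongly induced by interferon, were barely detected with either label. IFIT1 stood at 0.859 ± 0.325 against 1.76 ± 0.711 CPM (adjusted p = 0.084) and IFIT3 at 1.75 ± 0.257 against 2.14 ± 1.41 CPM (adjusted p = 0.59). IFIT2 had 12 counts against 13 over each group and IFIT5 had 7 against 8, and neither was tested. All 4 IFIT genes overlap the span of LIPA. TRIM22, a restriction factor, stood at 3.55 ± 0.687 against 2.89 ± 0.246 CPM (adjusted p = 0.47), and GBP2, a guanylate-binding protein that interferon gamma induces, at 1.27 ± 0.896 against 2.60 ± 1.18 CPM (adjusted p = 0.072). GBP2 passed as lower without CIP replicate 2 (log2 -1.74, adjusted p = 0.012) and without DMSO replicate 1 (log2 -1.33, adjusted p = 0.039). GBP1 had 0 counts in each CIP-labelled library and 3, 4 and 0 counts with the DMSO label.

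**Figure D4:**
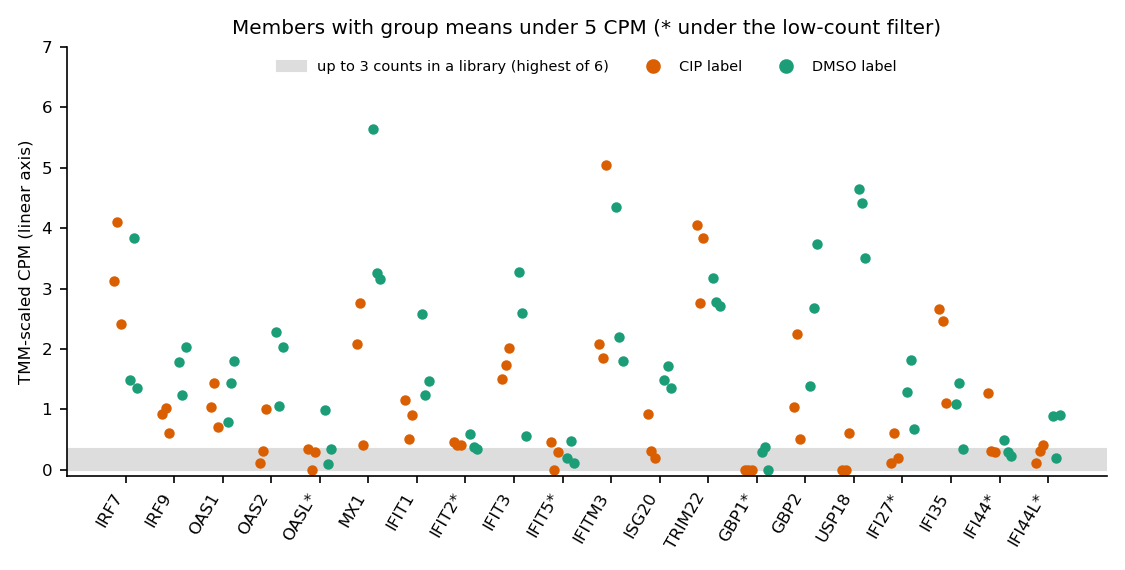
CPM on a linear axis in each library for the 20 members with group means under 5 CPM in both groups; an asterisk marks the 7 that were not tested, and the grey band reaches the level of 3 counts in the library where that level is highest. Most points lie between the band and 5 CPM and most groups overlap, while USP18 shows a wide gap with the DMSO label on top.

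The ISG15 system attaches a ubiquitin-like protein to other proteins, and its parts did not move together. ISG15, the modifier itself, lay between 5.75 and 7.07 CPM with the CIP label and between 2.87 and 10.5 CPM with the DMSO label (log2 -0.07 ± 0.32, edgeR adjusted p = 0.84), so the groups overlapped. USP18 (chr22:18150170-18177397), which removes ISG15 and also damps signalling at IFNAR2, had 0, 0 and 6 counts with the CIP label and 47, 46 and 31 counts with the DMSO label, or 0.202 ± 0.349 against 4.19 ± 0.605 CPM. All USP18 counts of the CIP label thus came from replicate 3, and USP18 reached the filter's minimum in all libraries only with the DMSO label. The fitted fold was 18.8 lower (log2 -4.24 ± 0.65, edgeR adjusted p = 5.3e-07), and without CIP replicate 3, against 3 counts over the remaining libraries of that label, USP18 was at least 25.9-fold lower. Leaving out DMSO replicate 1 as well keeps USP18 at 0 counts with the CIP label and at 46 and 31 with the DMSO label. TRIM25, a ligase that acts on RIGI and can attach ISG15, rose from 78.1 ± 3.53 to 133.8 ± 11.4 CPM (log2 0.78 ± 0.08, edgeR adjusted p = 1.2e-10).

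The remaining enzymes of ISG15 attachment were in the list of other pathway genes, and those named after their values were seen are UBA7 and HERC5. UBE2L6, the E2 that carries ISG15, fell from 38.5 ± 1.87 to 4.34 ± 0.128 CPM (log2 -3.15 ± 0.17, edgeR adjusted p = 4.5e-18). UBA7, the E1 that activates ISG15, rose from 4.73 ± 0.455 to 8.51 ± 0.666 CPM (log2 0.85 ± 0.26, edgeR adjusted p = 0.0038). HERC5, the main ligase for ISG15, stood at 35.2 ± 3.53 against 33.5 ± 4.99 CPM and did not pass (log2 0.07 ± 0.12, adjusted p = 0.63).

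Of the 3 nuclear body proteins, 2 rose and 1 fell, all by less than 2-fold (34.9% and 38.2% of all tested genes). SP110, which recognises chromatin, rose from 28.6 ± 4.69 to 50.5 ± 4.91 CPM (log2 0.81 ± 0.12, edgeR adjusted p = 3.0e-07), with the limit that it overlaps its relative SP140. SP100, a constant component of the bodies, stood at 52.02 ± 1.19 against 44.0 ± 2.84 CPM. Its call (log2 0.24 ± 0.10, edgeR adjusted p = 0.031) was lost with library totals (0.01, 0.93), with DESeq2 (0.22, 0.069) and without CIP replicate 3 (0.060), DMSO replicate 2 (0.093) or DMSO replicate 3 (0.12). PML, the protein that builds the bodies, fell from 42.3 ± 4.68 to 32.8 ± 1.35 CPM (log2 -0.37 ± 0.11, edgeR adjusted p = 0.0046), a call that was lost without CIP replicate 3 and DMSO replicate 1 together (-0.27, 0.088).

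The last 6 members are interferon-induced genes of mixed function, and the opposite moves of IFI6 and XAF1 stand out among them. IFI6 (chr1:27666064-27672192), a small membrane protein known to oppose cell death, had 23, 21 and 63 counts, or 2.66, 2.15 and 6.35 CPM, with the CIP label and 412, 529 and 366 counts, or 40.8, 50.7 and 41.4 CPM, with the DMSO label. CIP replicate 3 was the highest of its group, yet far below the DMSO-labelled libraries. IFI6 was 11.8-fold lower (log2 -3.55 ± 0.25, edgeR adjusted p = 1.7e-09), 18.3-fold lower without that library and 19.1-fold lower without DMSO replicate 1 as well.

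XAF1 (chr17:6755447-6775647), known to favour cell death by binding the inhibitor XIAP, had 35, 72 and 68 counts with the CIP label, or 4.05, 7.37 and 6.86 CPM, and 1, 8 and 2 counts with the DMSO label, or 0.099, 0.767 and 0.226 CPM. It is the member with the largest rise, at 15.9-fold (log2 3.99 ± 0.51, edgeR adjusted p = 1.7e-08), or 35.4-fold without DMSO replicate 2, which holds most of the counts of its group. XAF1 reached the filter's minimum in all libraries only with the CIP label. IFI35 stood at 2.08 ± 0.843 against 0.956 ± 0.562 CPM and did not pass (log2 1.07 ± 0.54, adjusted p = 0.071), but it passed as higher without CIP replicate 3 (1.39, 0.028) and without CIP replicate 3 and DMSO replicate 1 (1.47, 0.033). IFI27, IFI44 and IFI44L, usually among the strongest interferon-induced transcripts, were not tested, with 9 against 38, 17 against 10 and 8 against 19 counts over the 3 libraries of each label.

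Interferon transcripts themselves were near or below detection. Of 21 ligand genes, 19 had 0 counts in all 6 libraries, where a count of 0 allows up to 0.106 CPM over the CIP-labelled and 0.102 CPM over the DMSO-labelled libraries. The exceptions, chosen after their values were seen, were IFNE with 4 counts in DMSO replicate 3 and IFNL3 with 1 count in DMSO replicate 2. The gene for the specific chain of the lambda receptor, IFNLR1, had 0 counts in every library.

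Other genes of the pathway rose and fell in like numbers. Of 102 genes, 65 were tested, 26 rose, 25 fell and 14 did not pass (78.5% called, against 73.1% of all tested genes), with a median log2 fold change of 0.07. Among 11 tested genes of nucleic acid sensing and relay, 5 rose and 5 fell (34.9% and 38.2% of all tested genes). CGAS, the cytosolic DNA sensor, rose from 5.79 ± 0.882 to 20.4 ± 3.13 CPM (log2 1.81 ± 0.20, edgeR adjusted p = 8.6e-10), whereas STING1, the adaptor that receives its signal, fell from 39.1 ± 4.38 to 15.5 ± 1.53 CPM (log2 -1.33 ± 0.14, edgeR adjusted p = 1.5e-10). MAVS, the mitochondrial adaptor of RIGI and IFIH1, fell from 207.7 ± 4.64 to 100.9 ± 2.03 CPM (log2 -1.04 ± 0.07, edgeR adjusted p = 1.9e-15). The Toll-like receptor adaptors MYD88 (12.1 ± 0.248 to 2.77 ± 0.586 CPM, log2 -2.11 ± 0.26) and TICAM1 (7.96 ± 1.12 to 2.28 ± 0.865 CPM, log2 -1.79 ± 0.32) fell as well (edgeR adjusted p = 9.4e-09 and 7.1e-06). TLR9, the receptor for unmethylated DNA, rose from 1.13 ± 0.685 to 5.13 ± 1.71 CPM (log2 2.14 ± 0.44, edgeR adjusted p = 4.7e-05), and its log2 value was 2.76 without DMSO replicate 2.

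Negative regulators of the pathway also split, with 3 of 8 tested genes higher and 3 lower, near the shares of all tested genes (34.9% and 38.2%). PTPN2, a phosphatase of JAK1 and of STAT proteins, rose from 39.2 ± 4.20 to 99.02 ± 7.52 CPM (log2 1.33 ± 0.09, edgeR adjusted p = 1.2e-14). PIAS1, an inhibitor of STAT binding to DNA, fell from 115.8 ± 14.4 to 72.4 ± 10.97 CPM (log2 -0.68 ± 0.10, edgeR adjusted p = 1.7e-06). SOCS3, a feedback inhibitor named here after its values were seen, had 0 counts with the CIP label and 27 counts over the DMSO-labelled libraries and was not tested.

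Among 46 tested interferon-induced genes outside the 49, 18 rose (39.1%) and 17 fell (37%), near the shares of all tested genes (34.9% and 38.2%). The genes with the largest rises included SAMD9L, which went from 1.18 ± 0.458 to 5.69 ± 0.303 CPM (log2 2.25 ± 0.39), SAMHD1, which depletes nucleotides, from 4.31 ± 1.75 to 13.2 ± 1.73 CPM (log2 1.63 ± 0.26), and SAMD9 from 6.74 ± 1.33 to 20.4 ± 3.19 CPM (log2 1.60 ± 0.20), with edgeR adjusted p = 4.5e-06, 1.2e-06 and 9.3e-09 in that order. CXCL10, a chemokine, had 0 counts with the CIP label and 143, 121 and 89 counts with the DMSO label, or 11.9 ± 2.07 CPM. Measured against 3 counts over the group, CXCL10 was at least 113.5-fold lower. HELZ2, a helicase coactivator, fell from 9.13 ± 1.73 to 0.779 ± 0.261 CPM (log2 -3.53 ± 0.37, edgeR adjusted p = 2.3e-10). IRF8, the IRF factor of monocyte and dendritic lineages, had 0 counts with the CIP label and 489, 460 and 445 counts with the DMSO label.

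The promoter windows of the members, from 250 bases before to 50 bases after each annotated start, were searched for the same motifs. Windows were found for 36 of the 49 members (57 windows), and the table holds 35116 windows of 27305 genes in all. The core GAAANNGAA occurred in 40.4% of the member windows and in 8.11% of all windows, which is a property of the list since many members are known for that element. By gene, 19 of 36 members had a core, against 9.86% of all genes with a window and 8.94% of the tested ones. Of the members that fell, 10 of 14 had one (IRF5, IFIH1, IFI16, OAS3, EIF2AK2, MX1, IFITM1, BST2, ISG20 and IFI6), and of those that rose, 0 of 8 had one, which is near the share of all genes. Of the members that did not pass, 4 of 9 had a core (IFIT1, IFIT3, IFITM3 and ISG15), as had 5 of 5 that were not tested. A gene was counted if any of its windows held a core. By window, a core occurred in 47.8% for members that fell, 41.7% for those that did not pass and 0% for those that rose. The 4 members that fell without a core, IFNAR1, JAK1, TYK2 and STAT2, are receptor and signalling genes. So are IFNGR1, IFNGR2, JAK2 and IRF1 among the members that rose, and the part of role in the contrast between directions was not tested. IFNAR2, OAS2, MX2, IFITM2, USP18 and PML also fell but have no window.

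The gamma-activated site TTCNNNGAA occurred in 17.5% of member windows and in 7.66% of all windows, in 9 of 36 genes, among them IRF1 and SP110 of the members that rose. The variant GAAANGAAA, searched after the window of XAF1 had been seen, occurred in 26.3% of member windows and 3.12% of all windows. Counting core or variant, 3 of 8 members that rose (TRIM25, SP110 and XAF1) and 10 of 14 that fell had a match. The contrast between the directions was thus narrower with the variant than with the core alone, over 22 genes, and it was not tested. A match is a stretch of letters and says nothing about binding in these cells.

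**Figure D5:**
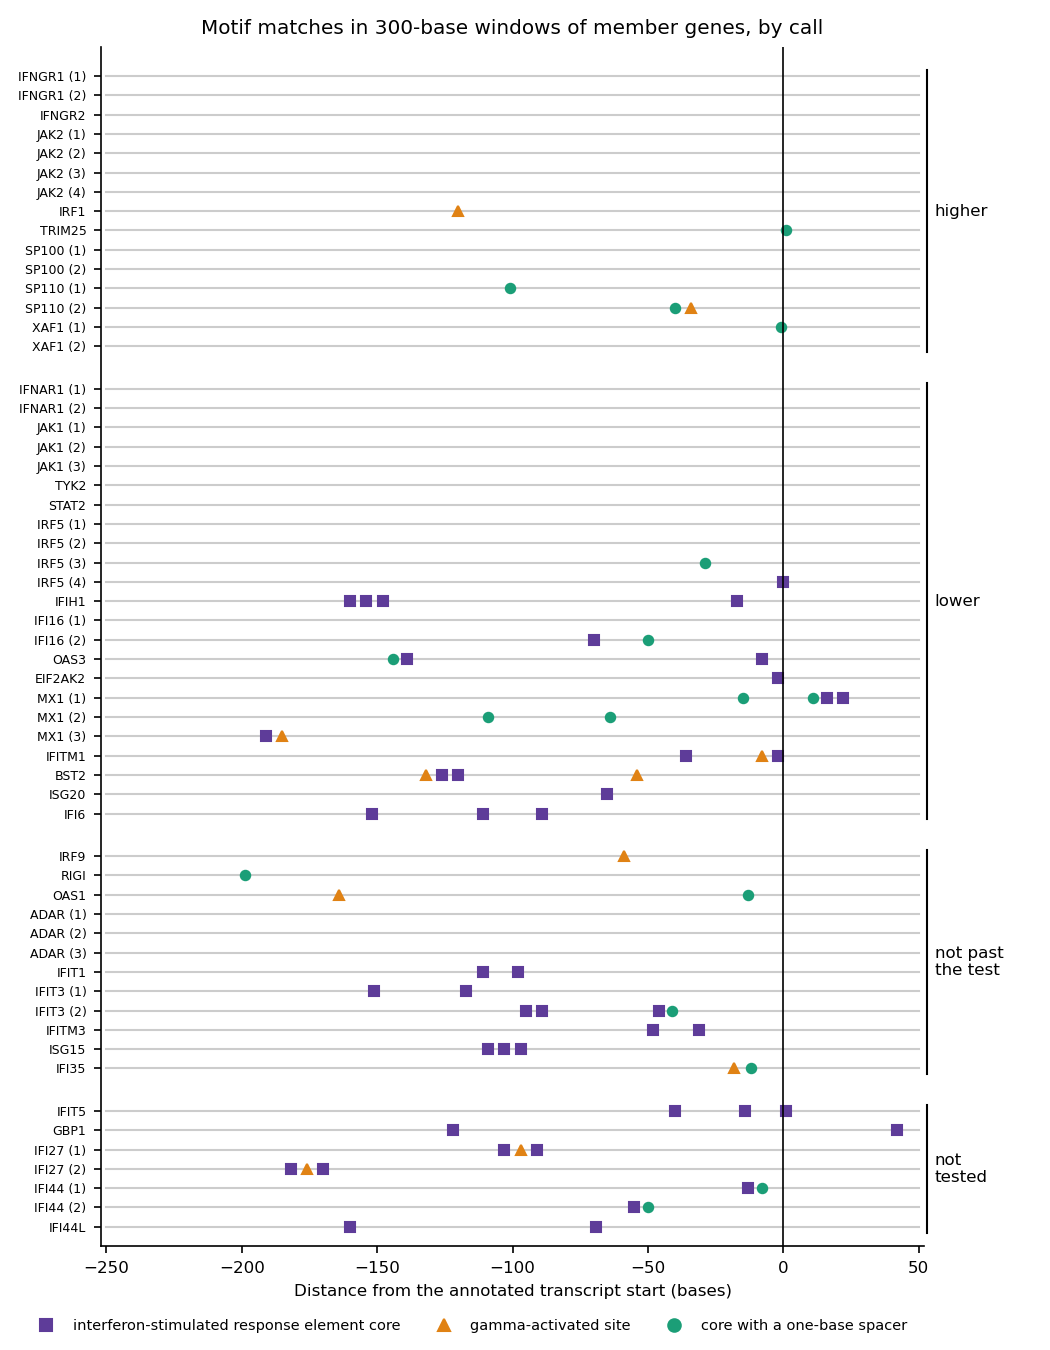
Position of each motif match, in bases from the annotated transcript start, in the 57 windows of 36 members, grouped by their call; a marker stands at the middle of a match and numbers in brackets separate several windows of a gene. Squares (core) are present in the rows of members that fell, did not pass or were not tested and in no row of the members that rose, which hold circles (variant) and triangles (gamma-activated site).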

How the data were processed

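Each deposited file holds whole-number read counts per gene symbol for 1 library, per the file headers, and the authors' counts carry no normalization as far as their unequal totals show. Bcl2fastq 2.20.0.422, fastp, STAR, HTSeq and the build GRCh38 are named in the submitters' processing notes. The annotation release, strand setting and handling of reads with several matches are not stated there, so overlapping genes (23 of the 49 members overlap another annotated span) and genes with shared 3' ends (6 members with over 10% shared words, GENCODE v29) are uncertain. Libraries were prepared from total RNA with a Lexogen QuantSeq kit, per the labels' protocols.

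Counts were filtered with filterByExpr and tested with edgeR 4.0.16 (R 4.3.3; TMM, robust quasi-likelihood, group alone, 2-sided, Benjamini-Hochberg over 12844 genes). The SE is the log2 fold change divided by the square root of F. CPM divides counts by the TMM-scaled total of the tested genes. With 3 against 3 libraries an exact permutation test cannot go below p = 0.1. Floors and intervals cover counting error only. Alternatives were RLE scaling, library totals, 2 other filters, DESeq2 1.42.0, glmTreat, a replicate block and each library left out, and, chosen after seeing the data, CIP replicate 3 and DMSO replicate 1 left out together. No library of a group was a repeat of another (chi-square per gene between pairs 3.82 to 7.66).

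The members and the other lists were chosen with earlier results of these data known. Values in every library are given for the receptors, the kinases and members called with at least 2-fold change and 5 CPM in the higher group. Of other pathway genes, a sublist gives up to 4 per direction with the largest change at 5 CPM or more, and the text names a part of these. Promoters and positions come from RefSeq (GRCh38.p14), matched by symbol. No promoter was matched for IFNAR2, IRF2, IRF3, IRF7, OAS2, OASL, MX2, IFIT2, IFITM2, TRIM22, GBP2, USP18 and PML. A planned comparison of protein sequences was not run.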

Additional observations from a re-analysis of the deposited data

How the results depend on the processing

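The counts of members that rose (8) and fell (20) stayed within 1.5 times under RLE scaling, both other filters, DESeq2 and each left-out library (6 to 8 and 18 to 21). With library totals 5 rose, and 19 in place of 11 fell at least 2-fold. Under glmTreat, which asks for a change beyond 2-fold, 2 members rose and 7 fell, as did 9 and 12 other pathway genes and 1271 and 2418 of all genes, by its construction. Without CIP replicate 3 and DMSO replicate 1, 4 members rose at least 2-fold in place of 2. With 1 library left out, 2 to 3 members rose and 9 to 13 fell at least 2-fold. The share of all genes at 2-fold was not computed for library totals or left-out libraries.

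The members' median of -0.35 was -0.58 with library totals, -0.53 to -0.39 with 1 library left out and -0.37 without CIP replicate 3 and DMSO replicate 1. The median of all genes was -0.056 with RLE scaling and with DESeq2, -0.26 with library totals, -0.20 without the low-count filter, -0.067 to -0.045 with 1 library left out and -0.043 without CIP replicate 3 and DMSO replicate 1.

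Signs turned for 4 members that did not pass the test in any of these settings. With library totals RIGI was at -0.12 and IFITM3 at -0.13, and with the replicate block ISG15 was at 0.038. With 1 library left out, RIGI ranged from -0.057 to 0.29, IFIT3 from -0.74 to 0.12, IFITM3 from -0.50 to 0.56 and ISG15 from -0.45 to 0.34. Without CIP replicate 3 and DMSO replicate 1, IFIT3 was at 0.011 and IFITM3 at -0.037. The cause was not tested.

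Of the 28 calls, 24 held under every alternative of scaling, filter, method or block on all 6 libraries, glmTreat apart. With each library left out in turn, 21 held. The replicate numbers did not pair the libraries (correlations of deviations -0.020, -0.043 and -0.024 over 12844 genes), and with the replicate block 8 members rose and 20 fell, against 4306 and 4755 of all genes. For the 20 members under 5 CPM in both groups, depth limits what could be seen.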
